A study of Mus musculus with 8 samples.

Results

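The transcripts of 9 surface marker genes of hematopoietic stem cells were followed in LT-HSCs, the long-term repopulating fraction of these cells, sorted from mouse fetal liver at E14.5. The genes are Procr, Ly6a, Ly6e, Slamf1, Cd48, Kit, Cd34, Adgrg1 and Thy1. They were found by symbol among the 55487 gene IDs of the count table, and the 9 members were among the 20610 genes that passed the filter of at least 10 reads over the 8 samples. Each sample held 500 LT-HSCs, sorted as lineage-negative SCA1+ cKIT+ CD48- CD150+ cells from IκBα WT (n = 3), HET (n = 3) or KO (n = 2) embryos. IκBα, encoded by Nfkbia, is the inhibitor that holds NF-κB in the cytoplasm, and the KO is a germline deletion carried in every cell of the embryo, so that the niche lacked the protein too. The embryos came from crosses of HET parents, and another KO library was set aside by the authors for its sequencing quality. WT1, WT2 and HET1 are labelled male with total RNA as the molecule, whereas WT3, HET2, HET3, KO1 and KO2 are labelled female with polyA RNA. Sex and RNA label therefore cannot be told apart, and both KO samples were female. The methods name mice as the source of the replicates, and a legend marks the samples as female or male embryos.

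Cells are sorted by protein on their surface, and the genes of the gate encode 4 such proteins. Ly6a encodes SCA1, a small GPI-anchored protein, and Kit encodes the receptor of stem cell factor. Slamf1 encodes CD150 and Cd48 encodes CD48, members of the SLAM family of adhesion receptors, and LT-HSCs are taken as positive for the first and negative for the second. Procr encodes EPCR, the endothelial protein C receptor, which marks emerging and long-term stem cells. Cd34 encodes a sialomucin of progenitors and endothelium, Adgrg1 the adhesion receptor GPR56, Thy1 the GPI-anchored CD90, and Ly6e another small GPI-anchored relative of SCA1. Transcript and surface protein need not move together, and no protein was measured here.

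Library depth ran from 17895973 to 21720972 reads assigned to genes. Levels are given as CPM, the reads of a gene relative to the TMM-scaled library total, and 3 reads corresponded to 0.125 to 0.178 CPM. Nfkbia had 1 read in KO1 and none in KO2, against 14.4 to 67.7 CPM in the 6 other samples. WT3 and HET3 stood apart from the rest and went against the label of their sort. The summed level of 10 genes of LT-HSC identity, among them Hlf, Mecom and Meis1, was 202 CPM in WT3 and 141 CPM in HET3, and 485 to 1769 CPM in the other samples. Ptprc, which encodes the leukocyte antigen CD45, was at 19.6 and 8.36 CPM in WT3 and HET3 and at 45.3 to 255.7 CPM elsewhere. Conversely, the summed level of 8 hepatocyte genes was 1397 and 712 CPM in these 2 samples and 48.7 to 286 CPM in the others, with Alb at 380 and 136 CPM against 0.209 to 44.1 CPM. The main comparisons are also given without these 2 libraries. In bulk samples fewer cells of a type and less RNA per cell cannot be told apart.

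The positions below are those of GENCODE M21 on GRCm38. Slamf1 (ENSMUSG00000015316, chromosome 1, 171767127 to 171801184, + strand) lies just beyond Cd48 (ENSMUSG00000015355, chromosome 1, 171682009 to 171705258, + strand), whereas Cd34 (ENSMUSG00000016494) lies at 194938819 to 194961279 of the same chromosome. Ly6a (ENSMUSG00000075602, 74994877 to 74998031, - strand) and Ly6e (ENSMUSG00000022587, 74955051 to 74959905, + strand) lie in the Ly6 cluster of chromosome 15. Procr (ENSMUSG00000027611) lies on chromosome 2 at 155751117 to 155755471, and Kit (ENSMUSG00000005672) on chromosome 5 at 75574916 to 75656722. Adgrg1 (ENSMUSG00000031785) lies on chromosome 8 at 94974751 to 95014217, and Thy1 (ENSMUSG00000032011) on chromosome 9 at 44043384 to 44048579. These genes are annotated as protein coding. Reads were 50 bases long and only unique ones were counted, and 246 of the 1297 windows of 50 bases in Ly6a transcripts (19.0%) also occur in Ly6c1, Ly6c2, Ly6i or I830127L07Rik. Such a read is lost to Ly6a. The coding sequence of Ly6a shared 86.4% of aligned bases with that of Ly6i, 83.6% with Ly6c2 and 61.2% with Ly6e. The window below, coding bases 333 to 382 of Ly6a, is shown because it is also found in Ly6c2 and I830127L07Rik.
Ly6a: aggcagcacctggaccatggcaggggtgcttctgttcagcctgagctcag
For Slamf1 and Cd34 the share of such windows was 2.38% and 2.14%, and for the other members it was 0. Of the exon bases of Cd34, 148 also lie in an exon of Gm16897 on the opposite strand, and the strand setting of the counting is not given in the sources used here.

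RefSeq promoters on GRCm38.p6 were at hand for 6 of the 9 members. The 4 windows below hold 150 bases each, the first of them 250 bases before the RefSeq start, 5′ to 3′. The RefSeq starts differ from the GENCODE starts given above, and the Procr window ends at the base before its GENCODE start. They are shown because Procr, Cd34 and Slamf1 moved together over the samples (below) and Cd48 did not. They lie at chr2:155750967-155751116, chr1:194938571-194938720, chr1:171766882-171767031 and chr1:171681742-171681891, all on the + strand. Capitals mark GATAA, the core of GATA sites, and GGAAG, a core of ETS sites, searched on both strands, which do not overlap here.
Procr: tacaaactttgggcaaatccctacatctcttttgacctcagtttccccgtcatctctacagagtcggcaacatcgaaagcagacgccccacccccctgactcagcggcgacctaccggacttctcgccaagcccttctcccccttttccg
Cd34: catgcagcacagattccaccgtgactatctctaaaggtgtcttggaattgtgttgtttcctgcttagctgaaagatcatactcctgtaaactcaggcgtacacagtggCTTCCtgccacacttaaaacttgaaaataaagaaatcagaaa
Slamf1: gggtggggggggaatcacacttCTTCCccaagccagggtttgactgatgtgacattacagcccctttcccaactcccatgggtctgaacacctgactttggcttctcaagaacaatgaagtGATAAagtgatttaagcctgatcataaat
Cd48: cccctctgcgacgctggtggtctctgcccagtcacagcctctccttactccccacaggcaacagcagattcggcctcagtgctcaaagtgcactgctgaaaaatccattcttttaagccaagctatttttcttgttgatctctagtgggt
Procr and Cd48 held neither motif, Cd34 held 1 GGAAG and Slamf1 held 1 of each. Of the members not shown, Adgrg1, which moved with the first 3, held neither motif in its 2 windows, and Kit, which did not, held 1 GGAAG in each of 2 overlapping windows. Of 32841 promoter windows of the same length, 15.6% hold GATAA and 44.4% hold GGAAG.

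Among the genes of the gate, Ly6a and Slamf1 varied widely whereas Kit and Cd48 varied less. Ly6a was at 62.7, 77.2 and 5.0 CPM in WT1 to WT3, at 19.9, 14.1 and 0 CPM in HET1 to HET3, and at 51.3 and 41.6 CPM in KO1 and KO2. HET3 held 0 reads of this gene although its cells were sorted as SCA1+, so that the level in WT2 was at least 434-fold that of HET3, with HET3 set at the limit of 3 reads in that library. Slamf1 was at 124, 119 and 19.8 CPM in WT, at 24.9, 22.7 and 13.0 CPM in HET, and at 83.2 and 51.1 CPM in KO. WT1 and WT2 were the highest, both KO samples came next, and WT3 and the 3 HET samples formed a low group. Kit was at 170.1, 212 and 148 CPM in WT, at 135, 165 and 170.0 CPM in HET, and at 231 and 228 CPM in KO, a 1.71-fold range. Cd48, whose protein the gate excludes, was at 53.3, 65.6 and 45.8 CPM in WT, at 89.1, 46.2 and 51.2 CPM in HET, and at 50.3 and 56.1 CPM in KO. Its transcript was present in each sample at 863 to 1675 reads, with HET1 the highest.

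Procr and Cd34 split the samples into a high and a low group as Ly6a did. Procr was at 169, 165 and 8.49 CPM in WT, at 36.3, 30.6 and 1.13 CPM in HET, and at 96.8 and 85.7 CPM in KO. WT1 exceeded HET3, with 19 reads, by 150.1-fold. Cd34 was at 389, 459 and 47.1 CPM in WT, at 210 and 129 CPM in HET1 and HET2 and at 7.53 CPM in HET3, and at 438 and 274 CPM in KO, a 60.9-fold range. Adgrg1, the member with the most reads in total, was at 877, 992 and 201 CPM in WT, at 406, 354 and 241 CPM in HET, and at 941 and 664 CPM in KO. Thus in Ly6a, Procr, Cd34, Adgrg1 and Slamf1 alike WT1, WT2, KO1 and KO2 were the upper 4 samples and HET1, HET2, HET3 and WT3 the lower 4. The share of all genes with this split was not computed, so the split is given as values only. Thy1 was close to the detection limit with 0 to 46 reads per sample, a highest level of 2.15 CPM in WT1 and 0 reads in HET3. Ly6e was at 475, 481 and 251 CPM in WT, at 492, 284 and 299 CPM in HET, and at 466 and 380 CPM in KO, a 1.96-fold range, and unlike Ly6a it was as high in HET1 as in WT1 and WT2.

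**Figure D1:**
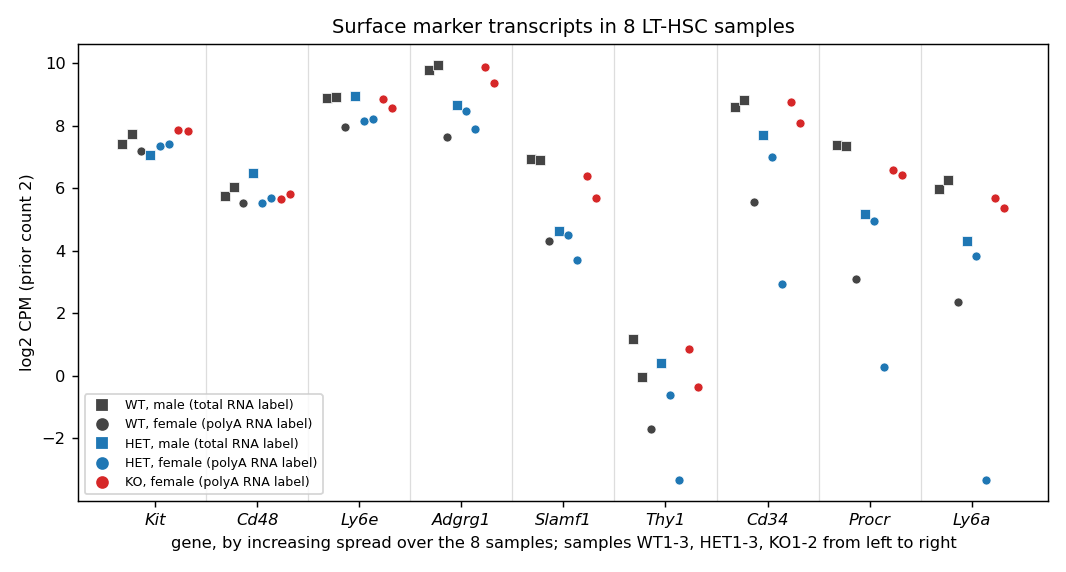
Level of each gene (y axis, log2 CPM with a prior count of 2) in the 8 samples, with colour for genotype and shape for sex and RNA label, one point per sample. Kit and Cd48 span 1.71-fold and 1.94-fold, and Ly6a reaches 0 reads in HET3, where the plotted value is set by the prior count.

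The SD of log2 CPM over the 8 samples ranged from 0.29 for Kit, 0.32 for Cd48 and 0.40 for Ly6e to 2.04 for Cd34, 2.43 for Procr and 3.16 for Ly6a. Of the 8885 genes with a mean of at least 10 CPM, 39.1% had a smaller SD than Kit and 44.2% a smaller SD than Cd48. Slamf1 (1.26) and Adgrg1 (0.91) exceeded 92.8% and 88.7% of these genes, and Cd34, Procr and Ly6a exceeded 97.6%, 98.9% and 99.8%. The value for Ly6a rests in part on the 0 reads of HET3. With WT3 and HET3 left out the SD was 0.97 for Ly6a, 1.05 for Procr, 1.08 for Slamf1 and 0.72 for Cd34, above 96.2%, 97.1%, 97.3% and 90.3% of genes, and 0.31 for Kit and 0.34 for Cd48, now above 52.2% and 57.7% of genes.

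**Figure D2:**
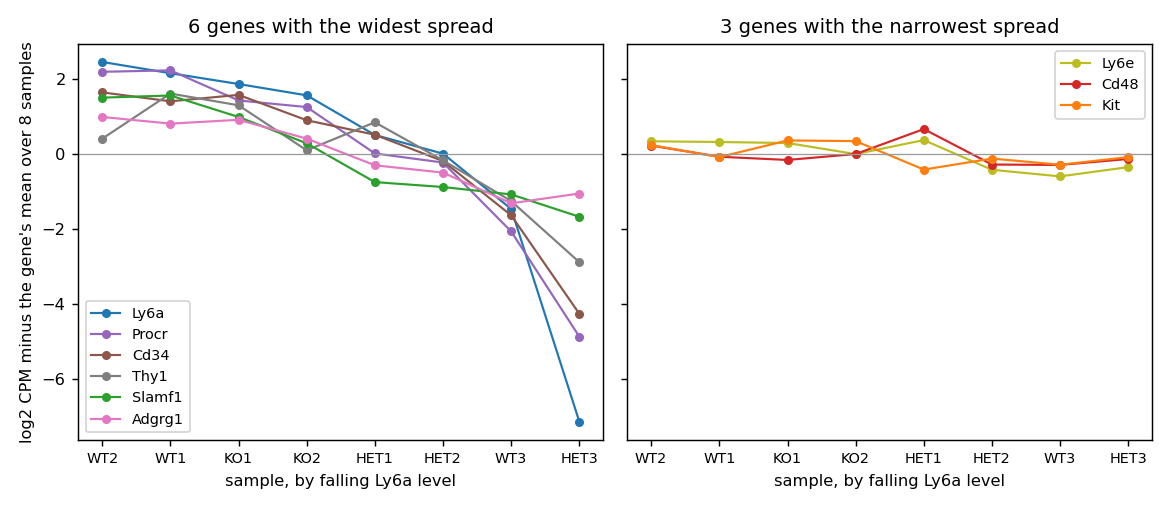
Log2 CPM of each gene minus its mean over the 8 samples (y axis), with samples in order of falling Ly6a (x axis). The left panel holds the 6 genes of widest spread, which decline toward WT3 and HET3, and the right panel holds Ly6e, Cd48 and Kit, whose SDs were 0.29 to 0.40.

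Levels were then compared between genes per kilobase of exon. In order of the mean log2 RPKM the genes were Ly6e (6.65 ± 0.40, SD, n = 8), Adgrg1 (6.52 ± 0.91), Cd48 (5.56 ± 0.32), Kit (4.33 ± 0.29), Cd34 (4.33 ± 2.04), Procr (4.14 ± 2.43), Ly6a (3.54 ± 3.16), Slamf1 (2.76 ± 1.26) and Thy1 (-2.03 ± 1.47). The Cd48 transcript, at a median of 44.0 RPKM, was thus above Slamf1, at a median of 6.17 RPKM, in cells sorted as CD48- CD150+. The gap depends on the length used, since Slamf1 has 6.156 kb of exon but a longest coding transcript of 2.693 kb, on which its median was 14.1 RPKM against 44.1 RPKM for Cd48. Neighbours in this order were compared by an exact two-sided sign-flip permutation test of the paired log2 differences, with 8 comparisons. The order was set by the same 8 samples, so each mean difference is positive by construction. The test also pools WT, HET and KO samples. Cd48 exceeded Kit by 1.23 ± 0.48 in 8 of 8 samples (exact p = 0.00781, adjusted p = 0.0312, the smallest the test can give before adjustment). Procr exceeded Ly6a by 0.60 ± 0.94 in 7 of 8 samples (exact p = 0.0156, adjusted p = 0.0417), and Slamf1 exceeded Thy1 by 4.80 ± 0.92 in 8 of 8 (exact p = 0.00781, adjusted p = 0.0312). The 5 other neighbours did not pass at an adjusted p of 0.05, among them Ly6e and Adgrg1 (0.13 ± 0.62), Adgrg1 and Cd48 (0.96 ± 0.89, exact p = 0.0469, adjusted p = 0.0938) and Kit and Cd34 (0.01 ± 1.93). With the length of the longest coding transcript in place of all exons, 5 neighbours differed. No neighbours passed without WT3 and HET3, nor with any one of WT1, WT2, HET1, HET2, KO1 and KO2 left out, where fewer samples raise the smallest p the test can give. Without HET3, where the value of Ly6a is set by the prior count, Procr minus Ly6a fell to 0.28 and did not pass (adjusted exact p = 0.0625).

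The genes were next compared in pairs over the 8 samples, with 36 pairs, exact two-sided permutation of the pairings and adjustment over the 36. Ly6a, Procr, Cd34, Thy1, Slamf1 and Adgrg1 went together, and their 15 pairs had Pearson r of 0.78 to 0.99 and Spearman rho of 0.76 to 1. Procr and Cd34 had r = 0.99 (exact p = 0.000149, adjusted p = 0.00107; rho = 0.93, exact p = 0.00223). Ly6a and Procr had r = 0.98 (exact p = 4.96e-05, adjusted p = 0.000893; rho = 0.98, exact p = 0.000397). Slamf1 and Procr, of the gate and outside it, ranked the 8 samples identically (rho = 1, exact p = 4.96e-05), with r = 0.89 (exact p = 0.000124, adjusted p = 0.00107). Both SLAM genes, though neighbours on chromosome 1, did not: Slamf1 and Cd48 had r = 0.13 (exact p = 0.797, adjusted p = 0.797; rho = 0.45, exact p = 0.267). Kit and Cd48 had r = -0.23 (exact p = 0.625, adjusted p = 0.643; rho = 0.07, exact p = 0.882), and Kit and Ly6a, which together define the LSK gate, had r = 0.38 (exact p = 0.392, adjusted p = 0.501; rho = 0.60, exact p = 0.132). None of the 8 pairs with Cd48 and none of the 8 pairs with Kit passed at an adjusted p of 0.05, whereas 18 of the 36 pairs did, 15 of them among the 6 genes named first and 3 with Ly6e. Without WT3 11 pairs passed. The pairs of Kit and Cd48 depended on the scaling. With library size alone 24 pairs passed, among them Kit with Slamf1 (r = 0.81, adjusted exact p = 0.0422), Kit with Adgrg1 (r = 0.87, adjusted exact p = 0.0209) and Cd48 with Ly6e (r = 0.84, adjusted exact p = 0.0211). In the deposited log2 values, corrected for sex by the authors, 18 pairs passed, among them Kit with Ly6a (r = 0.79, adjusted exact p = 0.0455), Slamf1 (r = 0.87, adjusted exact p = 0.0202), Procr (r = 0.81, adjusted exact p = 0.0388) and Adgrg1 (r = 0.93, adjusted exact p = 0.00729).

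The share of other genes that reached such an r differed between the members. Of the 8884 other genes with a mean of at least 10 CPM, 0.540% had an r with Ly6a at least as large as that of Cd34 (the partner gene included in each share), 1.13% as large as that of Procr, and 13.6% as large as that of Slamf1. For Slamf1, 3.93% were at least as high as Adgrg1. In all, 12.5% of genes had r of at least 0.9 with Slamf1, 11.3% with Procr, 6.33% with Ly6a and 14.7% with Adgrg1, but 0.18% with Kit and 0 of 8884 with Cd48. The pairs were also taken as deviations from the mean of each sex, permuted within sex, because the male and female groups hold 3 and 5 samples, too few for an r of their own. Ly6a and Procr then had r = 0.97 (exact p = 0.00278, adjusted p = 0.025), Procr and Cd34 0.98 (exact p = 0.00278, adjusted p = 0.025) and Slamf1 and Procr 0.86 (exact p = 0.00139, adjusted p = 0.025), and 11 of 36 pairs passed. Of the pairs with Kit, that with Adgrg1 rose from r = 0.70 (exact p = 0.066) to 0.93 within sex (exact p = 0.00417, adjusted p = 0.03). Without the 2 samples farthest from the median of Ly6a, which were HET3 and WT3, Ly6a kept r = 0.98 with Procr, 0.96 with Cd34, 0.97 with Slamf1 and 0.98 with Adgrg1, and r with Thy1 was 0.49. The relation of Thy1 to Ly6a and Procr therefore rests on those samples.

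**Figure D3:**
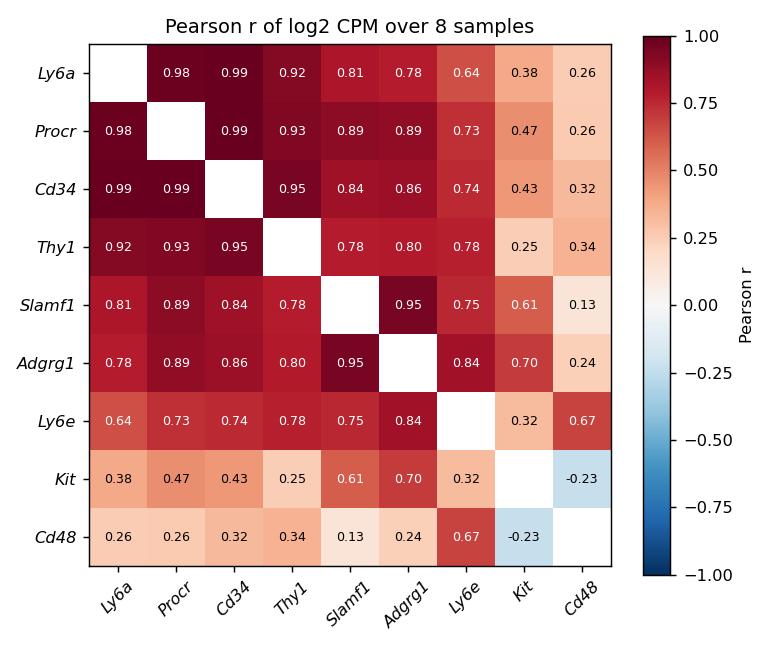
Pearson r of log2 CPM over the 8 samples for each of the 36 gene pairs, written in each cell and coloured from blue (-1) to red (1). The 15 pairs of the 6 genes at the upper left lie between 0.78 and 0.99, and the rows of Kit and Cd48 lie between -0.23 and 0.70.

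Ratios within a sample depend little on scaling between libraries, which enters only through the prior count. Per kilobase, Slamf1 transcripts stood at 0.448 and 0.350 of Cd48 in WT1 and WT2, at 0.320 and 0.176 in KO1 and KO2, at 0.0836 in WT3 and at 0.0541, 0.0952 and 0.0495 in HET1 to HET3. Per kilobase of the longest coding transcript the same ratio was 1.02 and 0.798 in WT1 and WT2, 0.729 and 0.401 in KO1 and KO2, and 0.113 to 0.217 in WT3 and the HET samples. On both lengths the 3 HET samples were lower than WT1, WT2, KO1 and KO2, and WT3 lay among them. The log2 ratio was -3.98 ± 0.51 (SD, n = 3) in HET and -2.08 ± 1.31 (SD, n = 3) in WT, which an exact permutation test did not separate (p = 0.2, where 0.1 is the smallest possible). Procr to Cd48 ranged from a log2 ratio of -6.16 in HET3 to 0.89 in WT1, and the KO mean of 0.00 exceeded the WT/HET mean of -1.89 by 1.89 (exact permutation, n = 2 and 6, p = 0.429, smallest possible 0.0714). That difference was 0.50 without WT3 and HET3, and HET minus WT in Slamf1 to Cd48 was -2.46 against -1.90 with them. Cd34 to Procr was the steadiest of the 5 ratios, from -0.64 in WT1 to 0.79 in HET3. Over the 5 ratios and both contrasts no exact p was under 0.2, and the adjusted p-values over the 10 tests were 0.536 to 0.857.

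KO was compared with WT/HET by the quasi-likelihood test of edgeR with sex in the model, in which both KO samples are in effect set against the 3 female samples WT3, HET2 and HET3. The 9 members had positive fold changes and none was called, a call being a Benjamini-Hochberg adjusted p below 0.05 together with a log2 fold change beyond 1 in either direction. No gene of the 20610 was called (0%). An unadjusted p under 0.05 was found for 7 of the 9 members, each higher in KO, beside 25.2% of the genes tested, with 15.7% of the genes tested higher and 9.48% lower in KO. With the replicate number as a block, the term for number 3 takes up WT3 and HET3, since no KO sample has that number. Those 2 libraries then add nothing to the KO difference. In that fit no member had an unadjusted p under 0.05, and the difference was 1.96 ± 1.81 for Ly6a, 1.75 ± 1.31 for Procr, 1.52 ± 1.11 for Cd34, 1.64 ± 1.02 for Slamf1 and 0.42 ± 1.51 for Thy1 (edgeR, adjusted p = 0.803 to 0.954 over the members). Leaving out HET2 gave 703 called genes and leaving out HET1 gave 8, none of them a member. Without HET2 the difference of Procr was 4.24 ± 1.0 and that of Thy1 3.42 ± 1.26 (edgeR, adjusted p = 0.061 and 0.145), against 2.76 and 2.19 with all samples, and without KO1 Thy1 was at 1.39 ± 1.41 (adjusted p = 0.687). The median log2 fold change was 1.86 over the members and 0.13 over the genes tested. Ly6a differed by 2.86 ± 1.23 (log2, SE, adjusted p = 0.193, edgeR), Procr by 2.76 ± 1.04 (adjusted p = 0.165) and Cd34 by 2.54 ± 0.87 (adjusted p = 0.156). Slamf1 differed by 1.86 ± 0.59 (adjusted p = 0.152) and Adgrg1 by 1.60 ± 0.39 (adjusted p = 0.148), whereas Ly6e (0.61 ± 0.15), Kit (0.51 ± 0.19) and Cd48 (0.16 ± 0.22) differed by less. DESeq2 with the same model called Slamf1, Cd34 and Adgrg1 higher in KO, with adjusted p of 0.0309, 0.0272 and 0.0105, among 7.29% of genes called higher. After shrinkage of the DESeq2 fold changes with apeglm these 3 stood at 1.39 ± 0.68, 1.89 ± 0.95 and 1.34 ± 0.46, whereas Ly6a stood at 0.19 ± 0.51, Procr at 0.46 ± 0.79 and Thy1 at 0.42 ± 0.69.

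The size of these differences depended on which samples KO was set against. Among female samples alone Ly6a differed by 2.81 ± 1.41 and Slamf1 by 1.81 ± 0.31 (edgeR, adjusted p = 0.246 and 0.116). Both KO samples lay above the 3 female WT and HET samples in 8 of the 9 members, Cd48 being the exception, beside 27.1% of genes tested. Without WT3 and HET3 the only female sample left to set against KO1 and KO2 is HET2, 1 library assumed to vary as the others do. The difference from it was 1.69 ± 0.77 for Ly6a, 1.55 ± 0.86 for Procr, 1.44 ± 0.54 for Cd34 and 1.53 ± 0.92 for Slamf1 (edgeR, adjusted p = 0.671 in each). In that fit 1 of the 9 members, Cd34, had an unadjusted p under 0.05, higher in KO, against 5.23% of genes in either direction and 4.18% higher. With no sex covariate, where WT1 and WT2 count as fully as the rest, it fell to 0.64 ± 1.43 for Ly6a, 0.42 ± 1.31 for Procr and 0.32 ± 0.88 for Slamf1, and Cd48 turned to -0.14 ± 0.28 (adjusted p = 0.978 to 0.980, edgeR). Kit kept 0.46 ± 0.18 in that fit. Kit was also the one member in which both KO samples exceeded each of the 6 others (exact permutation p = 0.0714, the smallest possible for n = 2 and 6), a pattern found in 3.05% of genes tested. Scaled by library size alone, WT2 overlapped with KO in Kit as well. With WT alone as the reference both KO samples are in effect set against WT3 alone, a library that went against the label of its sort, with the spread taken from WT1 and WT2 and from the KO pair. In that fit Procr (3.43 ± 0.25), Ly6a (3.22 ± 0.33), Cd34 (2.92 ± 0.38) and Adgrg1 (2.00 ± 0.31) were called (edgeR, adjusted p = 0.029, 0.029, 0.029 and 0.0378), among 3.6% of genes called higher. With HET alone as the reference no member was called, and Ly6a differed by 2.72 ± 1.85, Procr by 2.52 ± 1.36, Cd34 by 2.38 ± 1.26 and Slamf1 by 1.91 ± 0.41 (edgeR, adjusted p = 0.318 to 0.725 over the members). The summed hepatocyte genes were 48.7 and 286 CPM in KO1 and KO2 and 198 to 1397 CPM in the 3 female WT and HET samples, and their part in these differences was not tested.

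**Figure D4:**
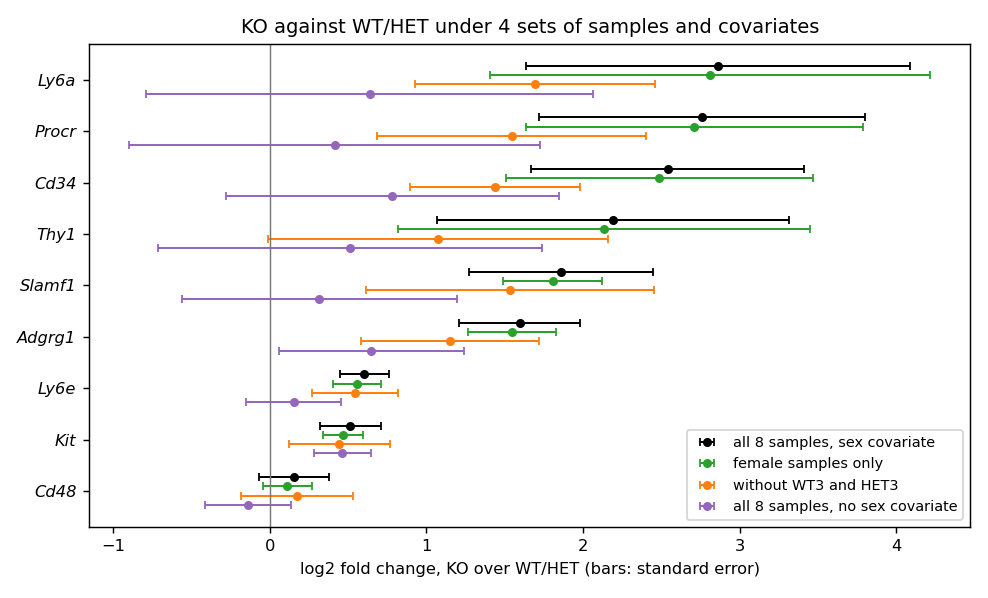
Log2 fold change of KO over WT/HET (x axis) with its standard error for the 9 genes, under 4 choices of samples and covariate (colours). Ly6a moves from 2.86 with sex in the model to 1.69 without WT3 and HET3, where KO is set against HET2 alone, and 0.64 with no sex covariate, whereas Kit stays between 0.45 and 0.51.

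HET was compared with WT over 6 samples with sex in the model. None of the 9 members and none of the 19542 genes tested was called (0%, edgeR), and at an unadjusted p under 0.05 there were 0 members and 3.86% of genes. DESeq2 called 52 genes, none of them a member. Slamf1 had the largest difference of the members, -1.22 ± 0.57 (adjusted p = 0.919), against -0.68 ± 1.63 for Ly6a, -0.68 ± 1.48 for Procr and 0.33 ± 0.19 for Cd48. The 8 erythroid genes, among them Hba-a1, Alas2 and Klf1, were all higher in HET at an unadjusted p under 0.05, beside 1.91% of genes, with a median log2 difference of 1.86 and none called (edgeR). Summed, they were at 1202, 674 and 2658 CPM in WT and at 9136, 3861 and 3097 CPM in HET, so that the groups did not overlap, and their part in the members' differences was not tested. The male HET arm is HET1 alone and the female WT arm is WT3 alone. HET1 was below WT1 and WT2 in Slamf1, Ly6a, Procr, Cd34, Adgrg1 and Kit and above both in Cd48. In the female samples WT3 was below HET2 and above HET3 in Ly6a, Procr, Cd34 and Slamf1. These positions of 1 library against 2 are given as values only, since the share of all genes with them was not computed. The difference of the HET effect between male and female samples was -2.14 ± 0.61 for Slamf1 and -1.77 ± 0.46 for Adgrg1 on the log2 scale, and the adjusted p was 0.624 for both (edgeR). These were the 2 members at an unadjusted p under 0.05, beside 6.77% of genes, and 0 of 20610 genes (0%) were called. Without WT3 and HET3 the sex term takes up HET2, so that HET1 alone was set against WT1 and WT2 with 1 residual degree of freedom and assumed to vary as they do. In that fit Slamf1, Procr, Ly6a, Cd34 and Adgrg1 were called lower in HET1, as were 6.85% of the 18422 genes tested. The 8 erythroid genes were again all higher at an unadjusted p under 0.05, with a median of 3.10, and 6 of 7 hepatocyte genes were higher as well, with a median of 4.12, beside 15% of genes. Without HET2 alone Procr was called lower, beside 0.389% of genes. Each HET sample was below the WT sample of its replicate number in Ly6a, Procr, Cd34, Slamf1 and Thy1 (3 of 3 numbers in each). In Kit and Adgrg1 this held for 2 of 3 numbers, and in Cd48 and Ly6e for 1 of 3. The share of all genes with such a pattern was not computed, so these counts are given as values only. With the replicate number as a block the sex term takes up number 2, so that the difference rests on numbers 1 and 3. No gene was called in that fit (edgeR), and 4 of the 9 members had an unadjusted p under 0.05, each lower in HET, beside 5.73% of genes in either direction and 4.76% lower. These were Procr at -2.49 ± 0.28 (adjusted p = 0.311), Ly6a at -2.82 ± 0.93 (adjusted p = 0.779), Cd34 at -1.73 ± 0.45 (adjusted p = 0.557) and Slamf1 at -1.48 ± 0.44 (adjusted p = 0.686).

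Among WT and HET, the 3 male samples lay above the 3 female samples in 8 of the 9 members, the exception being Kit, beside 21.1% of genes tested. An exact permutation test gave p = 0.1 for each of the 8, the smallest possible for n = 3 and 3. In the edgeR fit with genotype in the model none of the members was called, beside 2 of 19542 genes (0.0102%), and 4 members had an unadjusted p under 0.05, each higher in males, beside 23.7% of genes in either direction and 11.1% higher. Ly6e was higher in males by 0.84 ± 0.14 (adjusted p = 0.174), Cd48 by 0.62 ± 0.19 (adjusted p = 0.174), Slamf1 by 1.55 ± 0.57 (adjusted p = 0.188) and Adgrg1 by 1.33 ± 0.46 (adjusted p = 0.182), which were these 4. Larger differences with larger errors were found for Procr (2.73 ± 1.45, adjusted p = 0.289), Ly6a (2.64 ± 1.62, adjusted p = 0.349), Thy1 (2.44 ± 1.28, adjusted p = 0.287) and Cd34 (2.39 ± 1.07, adjusted p = 0.232), and Kit differed by 0.03 ± 0.21 (adjusted p = 0.945). Without HET2 Slamf1, Procr, Ly6a, Cd34 and Adgrg1 were called higher in males, beside 11.7% of genes, and without HET1 Slamf1 and Adgrg1 were, beside 1.46%. Without WT1 or without WT2 no gene was called. DESeq2 called Slamf1 and Adgrg1 higher in males, beside 1325 of 19542 genes tested called higher and 1820 called in either direction. With no filter on low counts edgeR called Slamf1, Procr, Ly6a, Cd34 and Adgrg1 higher in males. In that fit 1599 of 29500 genes tested were called higher and 2154 in either direction. With WT3 and HET3 left out the fit sets HET1 against HET2, 1 library against 1, with the spread taken from WT1 and WT2. The difference was then 0.50 ± 0.26 for Ly6a, 0.24 ± 0.20 for Procr, 0.70 ± 0.22 for Cd34, 0.13 ± 0.21 for Slamf1 and 0.95 ± 0.23 for Cd48 (edgeR, adjusted p = 0.195 to 0.892 over the members). Of the 8 hepatocyte genes 7 were lower in males at an unadjusted p under 0.05, with a median log2 difference of -4.94, beside 12.6% of genes. With WT3 and HET3 left out 4 of 7 were, with a median of -0.80, beside 2.8%. The part of these genes in the members' differences was not tested. Blocking on the replicate number took the 2 calls to 0, and Ly6a (-0.36), Procr (-0.06) and Thy1 (-0.92) changed sign, in a fit where number 2 alone holds a male and a female sample. The female samples WT3 and HET3 are those low in stem cell genes, so the difference by sex, RNA label and these libraries cannot be told apart.

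Genes with the profile most like each member were sought by Pearson r over the 8 samples among genes with a mean of at least 10 CPM. For Ly6a these were Col4a1 and Gimap8 (r = 0.999 and 0.998), for Procr Gfi1, a repressor of stem cell proliferation, and Gimap6 (0.997 and 0.996), and for Cd34 Sorbs3 and Mmrn1 (both 0.998). Slamf1 was most like Fam3a (0.995) and Gstm1 (0.994), Adgrg1 like Znrf1 and Vasp (0.997 and 0.995), Thy1 like Ddx4 (0.99) and As3mt (0.98), and Ly6e like Brms1l (0.98) and Ptbp2 (0.97). Kit was most like Lmf2 (0.96) and Rnf216 (0.95), and Cd48 had the loosest best matches, Fkbp15 (0.85) and Dck (0.84). Leaving out WT3 and HET3, these 18 r values were 0.84 to 0.998.

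Other surface genes of stem and progenitor cells split in the same way. Of 33 such genes, 23 reached a mean level of 10 CPM, and 13 of the 23 had r of at least 0.9 with Ly6a while 5 had r under 0.5. In the 6 samples other than WT3 and HET3 these numbers were 15 and 5, beside 12.8% of genes with r of at least 0.9. Esam, an endothelial and stem cell adhesion molecule, was at 1.90 CPM in HET3 and 12.6 CPM in WT3 against 66.8 to 252 CPM in the others. By contrast Cd47, the signal against phagocytosis, stayed at 560 to 698 CPM, Cd81 at 376 to 603 CPM and Cd24a at 398 to 729 CPM. For KO against WT/HET 17 of the 33 had an unadjusted p under 0.05, each toward higher levels in KO, beside 15.7% of genes tested, none was called, and the median log2 fold change was 1.77. With HET2 as the only female reference, WT3 and HET3 left out, 4 were higher and 1 lower at that p, beside 4.18% and 1.05% of genes, and the median was 1.19. The 6 other SLAM genes were low, with Ly9, Slamf6 and Cd244a the most abundant at mean levels of 3.51, 0.907 and 0.526 CPM. Of the Ly6 cluster beyond the members, Ly6c2, Ly6c1 and Ly6k led with means of 2.08, 0.812 and 0.136 CPM, and 5 of the 15 genes found had 0 reads throughout.

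**Figure D5:**
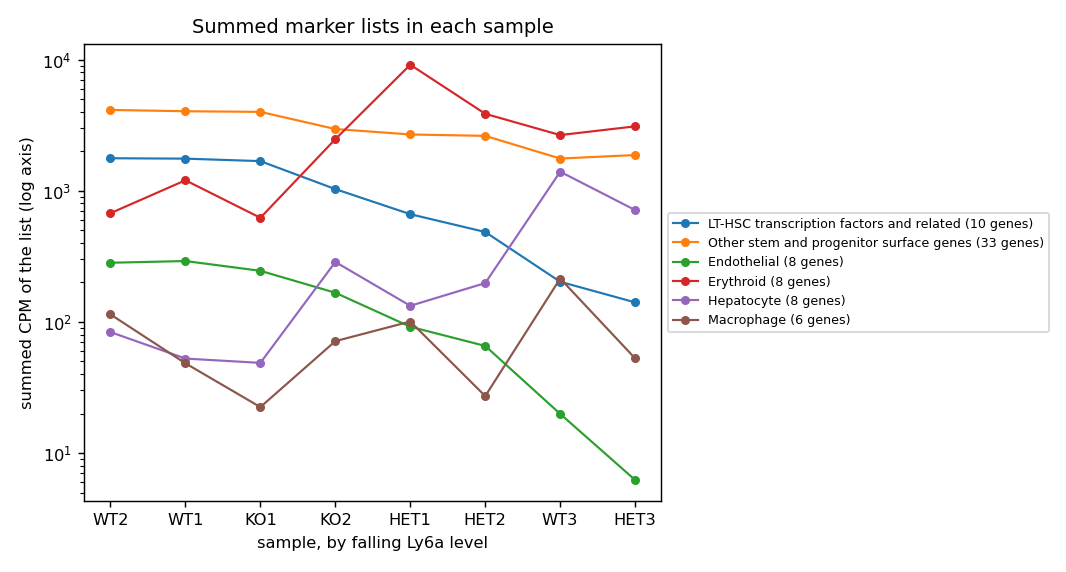
Summed CPM of 6 gene lists (y axis, log scale) in the 8 samples in order of falling Ly6a (x axis). The LT-HSC genes fall from 1769 CPM in WT2 to 141 CPM in HET3, and the hepatocyte genes reach 1397 CPM in WT3 and 712 CPM in HET3.

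The marker lists moved with the members to different degrees. The 10 LT-HSC genes fell with Ly6a from 1769 CPM in WT2 to 141 CPM in HET3. For KO against WT/HET all 10 had an unadjusted p under 0.05 toward higher levels, beside 15.7% of genes tested, with a median log2 fold change of 2.704 and none called (edgeR). Leaving out WT3 and HET3 left 4 of the 10 at an unadjusted p under 0.05, each higher, beside 4.18% of genes, with a median of 1.58. Mllt3, Meis1 and Mycn led this list with means of 196, 139 and 135 CPM. The summed erythroid genes, led by Hbb-bt, Hba-a1 and Klf1, ranged from 622 CPM in KO1 to 9136 CPM in HET1, and Klf1, the erythroid regulator, was at 1040 and 1227 CPM in WT3 and HET3 against 36.2 to 941 CPM in the others. The 8 endothelial genes summed to 291 CPM in WT1 and 6.23 CPM in HET3, led by Sox18, Tek and Tie1. Pecam1, Cdh5 and Kdr followed Ly6a as well, with r of 0.93, 0.92 and 0.88 over the 8 samples and highest levels of 65.6, 6.77 and 6.56 CPM, while Stab2 and Lyve1, of sinusoidal and lymphatic endothelium, had r of -0.19 and -0.07 and reached 4.01 and 0.836 CPM. The hepatocyte list was led by Afp, Trf and Alb, and Afp was at 553 and 325 CPM in WT3 and HET3 against 4.45 to 135 CPM in the others. The part of these lists in the members' levels was not tested.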

How the data were processed

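Bulk RNA-seq of 8 LT-HSC samples was used. The authors deposited raw counts per gene: reads were trimmed with Trim Galore 0.6.6, aligned to GRCm38 with STAR 2.7.8 and the unique ones counted per Ensembl gene, per the labels and the methods. They also deposited log2 values from the variance-stabilizing transformation of DESeq2, corrected for sex, which were used only as an alternative for the gene pairs.

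Symbols came from GENCODE M21 (55141 of 55487 IDs matched). Genes with fewer than 10 reads over the samples compared were left out. Counts were scaled by TMM and tested with edgeR 4.0.16 (glmQLFit, legacy form, glmQLFTest, R 4.3.3), with a term for sex, and for KO with a reference made of WT plus HET, as in the methods. DESeq2 1.42.0 was the alternative. Log2 CPM used a prior count of 2. In simulated data for KO against WT/HET, 200 of 19804 genes were given a log2 change of 2, up or down. There edgeR recovered 100 with 3 false calls and DESeq2 164 with 78. With the dispersion scaled by 0.25 edgeR recovered 188 with 14 false calls and DESeq2 195 with 41. The simulated samples held no effect of sex, RNA label or single libraries, so these numbers do not rank the tools for these data.

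The members and lists were chosen with earlier results of these data known. Named genes were the members, Nfkbia, the 2 genes most like each member over the samples, and the 3 most abundant genes of each list (SLAM, Ly6, other surface genes, and cell type markers), and the others are given as counts. Some genes of these lists are not reported here by name. Others named (Ptprc, Esam, Elane, Alas2, Hlf, Mecom, Pecam1, Cdh5, Kdr, Lyve1, Stab2) were chosen after their values were seen. Depth was 17895973 to 21720972 reads per sample, and limits of 3 reads cover counting error only.

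Same-numbered WT and HET samples deviated together from their group means over 8885 genes (r = 0.70, 0.49 and 0.77 for numbers 1, 2 and 3), although HET1 correlated with WT2 at 0.72. WT1 and KO1 had r = 0.62, HET1 and KO1 0.46, and WT2 and KO2 -0.63. With 2 KO samples the deviations from their mean are opposite by construction, so the KO values cannot show whether the numbers pair the samples. The labels do not say what a number marks, and the block was run as an alternative. Alternatives were other tools, scalings, filters, covariates, references, prior counts and gene lengths, and each sample left out. Leaving out WT3 and HET3 was chosen after seeing the data.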

Additional observations from a re-analysis of the deposited data

Results flagged for a closer look

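Dixon's test was applied to 14 values (the log2 CPM of the 9 members and the 5 log2 ratios) over the 6 WT and HET samples at its 95% level, where chance alone would mark 0.7 of the 14 on average. In 2 ratios HET3 lay far from the 5 other samples. The Ly6a to Ly6e log2 ratio per kilobase was -9.90 in HET3, with a gap of 0.665 of the whole range against a critical value of 0.625. The Kit to Ly6a log2 ratio was 7.85 in HET3, with a gap of 0.632. HET3 had 0 Ly6a reads, so both values are set by the prior count, and no single member was marked by the same test.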

How the results depend on the processing

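Most results for single genes, pairs and ratios kept their direction and their side of the threshold. The ratio tests could not reach p under 0.05 in any setting, so their side was fixed in advance. The number of genes called for male against female moved in 10 settings and stayed similar in 6. The number of neighbours that differed moved in 8 settings and stayed similar in 4. Depth limits Thy1, with 0 to 46 reads per sample, and Ly6a in HET3. Scaling by library size alone moved the median log2 fold change of KO against WT/HET over the genes tested from 0.13 to 0.41, and member changes are read relative to it. The cause of the changes below was not tested, except that fewer samples raise the smallest p of the exact tests.

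With the longest coding transcript, 5 neighbours in the order of levels differed, Kit minus Cd34 was -0.74 and Ly6a minus Slamf1 was -0.081. With samples left out in turn 0 to 3 neighbours differed and Kit minus Cd34 ranged from -0.59 to 0.22. Without WT3 and HET3 the number was 0, Ly6e minus Adgrg1 was -0.11, Kit minus Cd34 was -0.92, and the KO difference in log2 ratio was 0.11 for Cd34 to Procr and 0.014 for Kit to Ly6a. The KO difference of Cd34 to Procr ranged from -0.39 to 0.12 with samples left out in turn.

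The number of passing pairs was 11 for deviations from the sex means, 7 without the 2 farthest samples, 10 without WT3 and HET3, and 11 to 19 with samples left out in turn. Kit and Cd48 had r = 0.31 with library size alone and -0.43 to 0.61 with samples left out, and Slamf1 and Cd48 had -0.020 to 0.66. In the deposited log2 values, corrected for sex by the authors, r with Cd48 was -0.13 for Ly6a, -0.43 for Slamf1, -0.20 for Procr, -0.0052 for Cd34, -0.10 for Adgrg1 and -0.092 for Thy1. As deviations from the sex means these were -0.11, -0.42, -0.17, -0.052, -0.16 and -0.084. Without WT3 and HET3, r with Cd48 was -0.063 for Ly6a (the 2 samples farthest from its median), -0.19 for Slamf1, -0.14 for Procr and -0.17 for Adgrg1, and Kit with Thy1 had -0.076.

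For KO against WT/HET the genes called numbered 1825 with DESeq2, 1463 with apeglm shrinkage, 1106 with no filter on low counts, 1 with the version 4 fit, 706 with WT alone and 0 to 703 with samples left out in turn, and Cd48 was at -0.14 with no sex covariate. With no filter Adgrg1, Cd34, Procr and Slamf1 were called higher in KO, beside 989 of 31478 genes tested called higher and 1106 called in either direction. For HET against WT they numbered 52 with DESeq2, 131 with no filter, 1929 without WT3 and HET3 and 0 to 76 with samples left out. There Thy1 was at -0.0063 with RLE scaling, -0.066 with library size, -0.14 with the version 4 fit, -0.86 with no sex covariate, -1.57 with the replicate block, -0.30 without WT3 and HET3 and -0.96 to 0.45 with samples left out, and Ly6e was at -0.17 with no sex covariate. With samples left out in turn Cd34 ranged from -1.63 to 0.53, Procr from -2.41 to 0.91, Kit from -0.50 to 0.18, Adgrg1 from -1.20 to 0.56 and Ly6a from -2.53 to 0.50.

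For male against female WT and HET the genes called numbered 1820 with DESeq2, 2154 with no filter, 5 with the version 4 fit, 4 with no genotype covariate, 0 with the replicate block, 34 without WT3 and HET3 and 0 to 2914 with samples left out in turn. Kit was at -0.011 with upper quartile scaling, -0.29 without WT3 and HET3 and -0.31 to 0.31 with samples left out. With the replicate block Procr was at -0.064, Thy1 at -0.92 and Ly6a at -0.36. The block changed no other call.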

Other observations

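The other lists of cell type markers were measured in the same samples and are given as values. The 6 megakaryocyte genes, led by Pf4, Gp9 and Ppbp, summed to 1351 CPM in WT2 and 1095 CPM in KO1 but to 140.4 CPM in KO2, 77.1 CPM in WT3 and 34.6 CPM in HET3. The platelet chemokine Pf4 reached 745 CPM in KO1, against 50.1 CPM in KO2. The 8 neutrophil and monocyte genes, led by Lyz2, Mpo and Prtn3, ranged from 145 CPM in HET3 to 995 CPM in WT3. Elane, the neutrophil elastase of early granulocytic cells, was at 112 CPM in WT3, 120 CPM in HET2 and 40.7 CPM in HET1 and at 0.0836 to 22.8 CPM in the others. The 6 macrophage genes, led by C1qb, Cd68 and Adgre1, ranged from 22.4 CPM in KO1 to 214 CPM in WT3. The 8 lymphoid genes stayed at 0.197 to 6.51 CPM, and the 5 stromal genes, led by Pdgfrb, Cxcl12 and Dcn, at 0.538 to 4.54 CPM.

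For KO against WT/HET none of the genes of these lists was called (edgeR). At an unadjusted p under 0.05, 2 of 6 megakaryocyte genes and 4 of 8 endothelial genes were higher in KO, 1 neutrophil and monocyte gene, 1 lymphoid gene and 2 stromal genes were lower, and 0 of the 8 erythroid, 8 hepatocyte and 6 macrophage genes passed in either direction. Of all genes tested, 15.7% were higher and 9.48% lower at that p. The median log2 fold change was -1.27 for erythroid, -2.59 for hepatocyte, -1.17 for macrophage, 1.98 for megakaryocyte and 2.69 for endothelial genes, beside 0.13 over the genes tested. With WT3 and HET3 left out, where HET2 is the only female reference, these medians were -1.56, -0.45, 0.84, 0.90 and 1.71, so that the macrophage median changed sign, beside 0.14 over the genes tested, and 0 megakaryocyte genes and 1 endothelial gene were higher at that p, with 1 neutrophil and monocyte gene, 2 lymphoid genes and 2 stromal genes lower, beside 4.18% and 1.05% of genes.

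Ly6c2, which shares a 50-base window with Ly6a, ran against it in part, with 7.13 CPM in HET1, 3.53 CPM in HET2 and 3.85 CPM in WT3 and 0 to 0.489 CPM in WT1, WT2, KO1 and KO2, and HET3 held 1.60 CPM.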
